A study of Mus musculus with 6 samples.

Results

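The 10 genes described here encode vascular endothelial growth factors (VEGF), their receptors, the neuropilins and class 3 semaphorins that bind neuropilins. They were taken by symbol from the 32285 genes of the count matrices, and all 10 symbols were found. Of them, 3 are ligands (Vegfa, Vegfb and Vegfc), 3 are receptor tyrosine kinases (Flt1, Kdr and Flt4), 2 are the neuropilins (Nrp1 and Nrp2) and 2 are the semaphorins Sema3a and Sema3c. By the study's methods, C57BL/6 S-56 neonates received 5 µl of lysophosphatidic acid (LPA, a signalling lipid of blood) or of the 0.01% bovine serum albumin vehicle into a lateral ventricle at P7, and brains without olfactory bulbs and cerebellum were taken at P15. Each of the 6 libraries, 3 per treatment, holds NeuN-negative sorted nuclei, labelled as 1 brain each, so neurons are those that escaped a sort against a neuronal nuclear protein. The question for these genes was in which cells they are transcribed, and where their level differed between LPA- and vehicle-injected mice.

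VEGFA is released by glial and epithelial cells and binds VEGFR2 (Kdr), the main signalling receptor of endothelial cells, and VEGFR1 (Flt1), which binds it tightly but signals weakly and is also made in a soluble form. VEGFB binds VEGFR1, while VEGFC binds VEGFR3 (Flt4), a receptor of lymphatic and growing blood vessel endothelium. Neuropilins are co-receptors without kinase activity that take up both VEGF and class 3 semaphorins, which act on axons and vessels through plexins. Reads of the 3′ end on a pre-mRNA reference cannot tell soluble from full-length Flt1, or the splice forms of Vegfa, and nuclear RNA says nothing of protein.

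The promoters of the receptors and of Vegfa are shown because the receptor genes share endothelial cells as their highest cell type and because Vegfa is the ligand whose LPA effect differed between cell types. The gene bodies of the receptors lie at chr5:147561604-147726011 (Flt1), chr5:75932827-75978458 (Kdr) and chr11:49609263-49652739 (Flt4), and that of Vegfa at chr17:46016993-46032369, on GRCm38 by GENCODE M21. The windows are 300 bases around the RefSeq transcription start on GRCm38.p6, written 5′ to 3′ on the strand of the gene, with positions counted from 1 at the 5′ end. Both strands were searched for 5 motifs, and any match is a run of letters, not a binding site. The letters GGAAGT, which hold the core of motifs for ETS transcription factors, stand in capitals (as ACTTCC where they lie on the opposite strand). They were found in 23.8% of all 32851 promoter windows of the table. Flt1 holds them at position 199 and Kdr at position 34, and the Flt4 window has no match.
Flt1, chr5:147725962-147726261, minus strand: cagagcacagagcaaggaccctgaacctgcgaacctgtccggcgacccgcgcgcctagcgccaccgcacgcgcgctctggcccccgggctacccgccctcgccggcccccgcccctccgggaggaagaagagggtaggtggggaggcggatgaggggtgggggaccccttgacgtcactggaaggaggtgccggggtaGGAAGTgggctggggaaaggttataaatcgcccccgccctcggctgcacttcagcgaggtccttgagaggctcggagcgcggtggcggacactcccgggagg
Kdr, chr5:75978406-75978705, minus strand: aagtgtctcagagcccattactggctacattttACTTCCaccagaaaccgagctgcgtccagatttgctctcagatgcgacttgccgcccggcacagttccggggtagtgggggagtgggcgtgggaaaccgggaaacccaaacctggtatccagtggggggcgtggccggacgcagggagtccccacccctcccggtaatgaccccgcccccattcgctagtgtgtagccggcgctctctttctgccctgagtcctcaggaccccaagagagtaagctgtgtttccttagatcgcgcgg
Flt4, chr11:49609429-49609728, plus strand: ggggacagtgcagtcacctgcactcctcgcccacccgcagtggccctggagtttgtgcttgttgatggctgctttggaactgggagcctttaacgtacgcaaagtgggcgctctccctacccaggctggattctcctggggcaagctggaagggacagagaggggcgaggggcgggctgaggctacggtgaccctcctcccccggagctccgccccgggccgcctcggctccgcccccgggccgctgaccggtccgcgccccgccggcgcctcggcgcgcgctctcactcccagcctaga

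For Vegfa the capitals mark ACGTG, the core of the hypoxia response element (as CACGT where it lies on the opposite strand), which 19.6% of the windows hold. The table lists 2 starts. The upstream start has no ACGTG in its window, and the start inside the gene has it at position 40, on the opposite strand.
Vegfa upstream start, chr17:46032328-46032627, minus strand: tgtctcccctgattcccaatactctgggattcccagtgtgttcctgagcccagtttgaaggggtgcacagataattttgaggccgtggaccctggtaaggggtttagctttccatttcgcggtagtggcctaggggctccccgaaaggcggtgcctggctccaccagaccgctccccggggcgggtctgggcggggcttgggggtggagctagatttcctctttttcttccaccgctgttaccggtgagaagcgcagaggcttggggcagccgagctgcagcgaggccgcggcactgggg
Vegfa internal start, chr17:46025114-46025413, minus strand: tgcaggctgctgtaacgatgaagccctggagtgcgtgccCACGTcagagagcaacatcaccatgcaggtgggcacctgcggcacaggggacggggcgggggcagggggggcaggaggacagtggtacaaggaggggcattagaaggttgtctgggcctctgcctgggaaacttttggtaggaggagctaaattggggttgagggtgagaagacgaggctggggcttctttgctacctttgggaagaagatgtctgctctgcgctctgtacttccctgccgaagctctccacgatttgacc

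Among the other members, GGAAGT was found in the window of Sema3a and in that of the internal Vegfa start, and ACGTG in that of Sema3c. The member windows held no CGGAAG, a longer form of the ETS core that 16.9% of all windows hold. They also held no TGANTCA (AP-1, 7.81% of windows). The same was true of the E-box CACGTG, which contains the hypoxia core and is in 7.15% of windows.

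After filters, 57443 nuclei remained of libraries with 48852970 to 65688644 UMIs, and markers named 11 cell types with at least 10 nuclei in every library, from 201 macrophages to 14328 neurons. Names such as endothelial cells mean nuclei that are like that type by marker genes, and the members were kept out of the genes used for clustering. Activated microglia (400 nuclei) were set apart from homeostatic microglia (1171). A cluster that scored on both lists (272 nuclei) is called intermediate here. Activated microglia numbered 97, 152 and 149 in LPA libraries and 0, 1 and 1 in vehicle libraries. Clusters left unnamed hold 20.4% (Nrp2) to 27.1% (Flt1) of the UMIs of the members. Of the nuclei kept, 752 (1.31%) share their barcode with a nucleus of another library. Xist was high in LPA 2, LPA 3 and vehicle 2 and near 0 in the other 3 libraries, so the sexes are unevenly spread over the treatments. The labels do not say whether the mice came from separate litters, and the p-values measure the spread between these libraries.

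Levels are CPM, the UMIs of a gene scaled to the same total for each library and cell type, and they are compared between cell types for each gene, not between genes. Beginning with the ligands, Vegfa was highest in astrocytes, at 285 ± 29.8 CPM (SD, n = 6 libraries). Choroid plexus epithelium (161 ± 10.2 CPM) and oligodendrocyte precursor cells (OPCs, 148 ± 25.1 CPM) followed, with overlapping libraries. Astrocytes held 38.9% of the 24351 Vegfa UMIs. Within the oligodendrocyte lineage, Vegfa read 93.1 CPM in the cluster led by Arhgap24 and Neu4 and 91.0 CPM in the Enpp6 cluster, against 21.7 to 37.8 CPM over the libraries of the Prr5l and Anln cluster. Levels in the Vegfa-rich types exceeded those of endothelial cells (26.9 ± 8.21 CPM) in each of the 6 libraries. Vegfb had no clear peak, since the libraries of astrocytes (29.7 ± 2.14 CPM), choroid plexus epithelium (29.5 ± 8.71 CPM) and meningeal fibroblasts (25.5 ± 3.19 CPM) overlapped.

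Vegfc was highest in endothelial cells (108 ± 21.2 CPM), above meningeal fibroblasts (63.6 ± 6.85 CPM) in the ranges of their libraries. Choroid plexus epithelium came next at 31.6 ± 13.9 CPM. In pericytes 6 UMIs and in homeostatic microglia 4 UMIs of Vegfc were counted over all libraries.

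The receptors were endothelial. Flt1 reached 4242 ± 367 CPM in endothelial cells, where 96.1% to 97.9% of nuclei had a UMI once each nucleus was thinned to 1500 UMIs. Pericytes came next with 367 ± 55.4 CPM, and their 6 libraries (302 to 449 CPM) all lay above those of meningeal fibroblasts (77.7 to 133 CPM). The endothelial level was 11.6 times that of pericytes. Macrophages of vehicle 1 read 611 CPM of Flt1 from 33 UMIs, 25 of them in a single nucleus that also carried 8 of 12 endothelial markers, and the other macrophage libraries ranged from 0 to 34.3 CPM. Kdr stood at 649 ± 71.7 CPM in endothelial cells and at 15.6 ± 12.8 CPM in pericytes, the next type. Flt4 stood at 77.5 ± 10.7 CPM in endothelial cells, from 268 UMIs, and each other type held a mean of at most 3.09 CPM. The lymphatic marker list summed to 36.9 to 74.1 CPM in the endothelial libraries, with Ccl21a at 0. Endothelial cells held 59.1%, 54.5% and 49.8% of all UMIs of Flt1, Kdr and Flt4.

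The neuropilins were spread over more types. Nrp1 was highest in macrophages (1206 ± 262 CPM), followed by endothelial cells (525 ± 33.7 CPM), homeostatic microglia (346 ± 69.1 CPM) and meningeal fibroblasts (246 ± 14.4 CPM), and the libraries of neighbours in this order did not overlap. Oligodendrocytes were lowest at 17.1 ± 1.90 CPM. Nrp2 was highest in neurons (192 ± 27.9 CPM), whose libraries overlapped with those of endothelial cells (152 ± 22.1 CPM) and macrophages (146 ± 45.0 CPM). Neurons held 57.4% of Nrp2 UMIs, and among neuron clusters Nrp2 ranged from 35.7 CPM in the Drd2-led cluster to 806 CPM in the cluster led by Ebf2 and Ebf3.

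The semaphorins differed in their source. Sema3a, a repellent of axons, was highest in meningeal fibroblasts at 368 ± 24.8 CPM, 5.97 times the level of neurons (61.6 ± 7.32 CPM). Among meningeal clusters it ranged from 76.0 CPM in the Moxd1-led cluster to 589 CPM in the Ptgds-led cluster. That Ptgds-led cluster had little Nrp1 (24.9 CPM), which stood at 479 CPM in the Slc47a1-led cluster. Sema3c was highest in endothelial cells (442 ± 47.9 CPM), 8.62 times the level in choroid plexus epithelium (51.3 ± 10.8 CPM), and these libraries did not overlap. The map of mean levels shows the 3 receptors and Sema3c filling the endothelial column, Vegfa the astrocyte column and Sema3a the meningeal column.

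**Figure D1:**
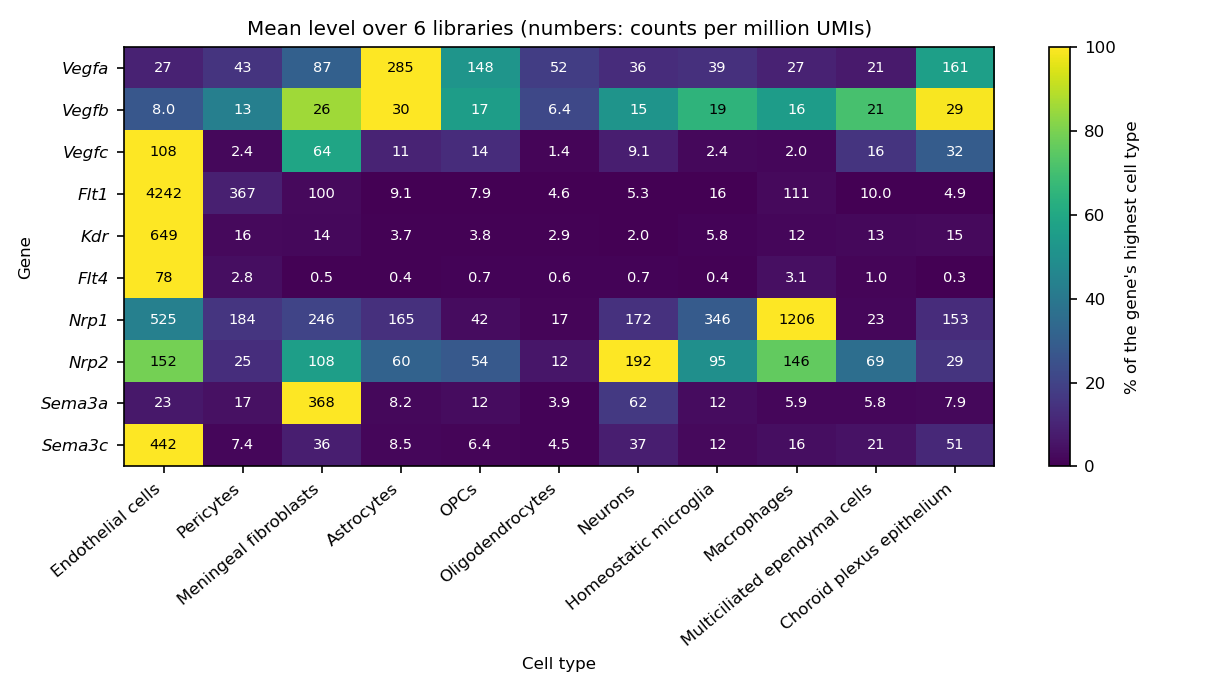
Mean CPM of each gene (rows) in 11 cell types (columns) over 6 libraries, printed in each cell, with the colour giving the percentage of the gene's highest cell type. Flt1, Kdr, Flt4, Vegfc and Sema3c peak in endothelial cells, Vegfa in astrocytes, Nrp1 in macrophages, Nrp2 in neurons and Sema3a in meningeal fibroblasts, and the macrophage value of Flt1 rests on 1 library.

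The genes whose pattern over the 11 cell types was closest to that of a member, by Pearson's r of mean log2(CPM + 1) among 12562 genes, were Adcy4 (r = 0.991), Adgrf5 (0.984) and Tead4 (0.978) for Flt1. For Flt4 they were Ly6c1 (0.995), Slc38a5 (0.993) and Il2rg (0.991), and for Kdr Slc19a3 (0.965), Car5a (0.955) and Rpl41 (0.953). For Nrp2 they included Plxna4 (0.894), a plexin. The 11 points share libraries, and these values are descriptions.

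Within the endothelium the members split by sub-cluster. In the largest sub-cluster, led by Slco1a4 (793 nuclei), Sema3c was at 553 CPM on average over the libraries, Nrp1 at 435 CPM and Vegfc at 90.6 CPM. In the sub-cluster led by Apln (159 nuclei), a peptide gene of growing vessels, Sema3c was at 0 to 85.2 CPM. Nrp1 there ranged from 952 to 1240 CPM and Nrp2 from 185 to 318 CPM, and Vegfc had UMIs in 1 library. Every library of this sub-cluster was thus above all libraries of the Slco1a4-led sub-cluster in Nrp1 (394 to 489 CPM) and below them in Sema3c (505 to 611 CPM). In the sub-cluster led by Bmx (63 nuclei, as few as 4 in a library), Vegfc ranged from 415 to 1249 CPM and Kdr from 228 to 522 CPM. Flt1 was nearly even, at 4054 to 4327 CPM on average in the 4 sub-clusters.

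**Figure D2:**
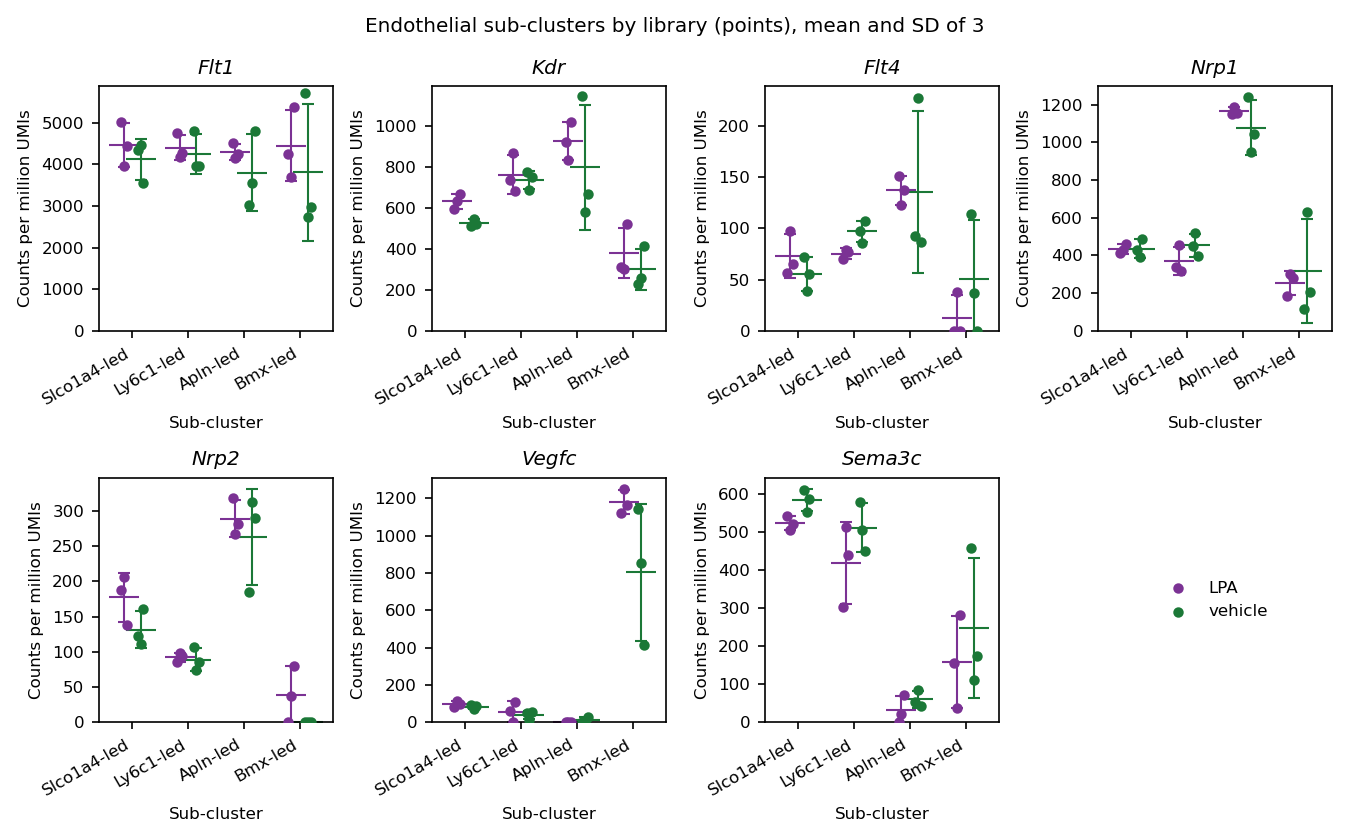
CPM of 7 members (panels) in 4 endothelial sub-clusters named by their leading gene, with a point per library, LPA in purple and vehicle in green, and bars for the mean and SD of 3. On average Nrp1 and Nrp2 stand highest and Sema3c lowest in the Apln-led sub-cluster, and Vegfc is highest in the Bmx-led sub-cluster.

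LPA was compared with vehicle per cell type on UMIs summed per library, with the quasi-likelihood test of edgeR over all genes. Calls needed a Benjamini-Hochberg adjusted p below 0.05 together with a change of 0.25 or more on the log2 scale, in either direction. Over the 11 cell types, 72 tests of members passed the filter on low counts and 3 were called. These were Nrp2 and Sema3c in astrocytes, where 8.02% of all genes tested were called, and Nrp1 in multiciliated ependymal cells, where 4.4% were called. In the other 9 cell types no member was called. Of the 72 tests, 15 had an unadjusted p under 0.05 by edgeR, and 12 of these were not called. DESeq2 called 2 members, both in astrocytes, and 10 of its tests had an unadjusted p under 0.05. The shares of all genes with such an unadjusted p, or called by DESeq2, are not given here. These counts are thus not a result about the members. The plot of fold changes shows 3 filled points among the 72.

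**Figure D3:**
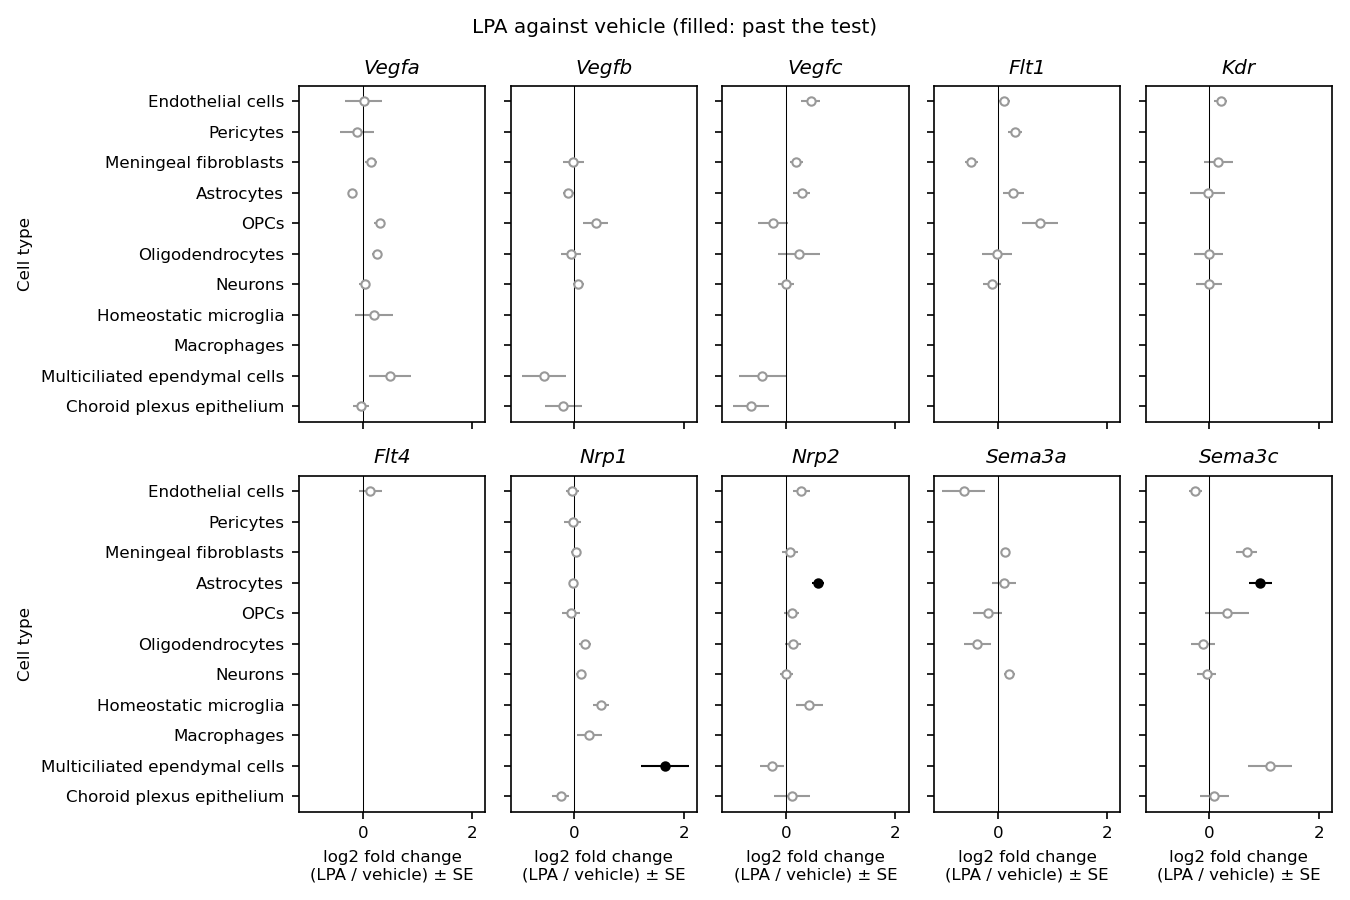
Log2 fold change of LPA over vehicle (x axis, bars show the standard error, n = 3 libraries per treatment) for each member (panels) in each cell type (y axis) where it passed the filter on low counts. Filled points mark Nrp2 and Sema3c in astrocytes and Nrp1 in multiciliated ependymal cells, and open points did not pass the test.

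In endothelial cells no member of 9 tested was called by edgeR or DESeq2, and 0.0951% of all genes were called. Flt1 read 4837, 4027 and 4396 CPM in LPA libraries and 4286, 4152 and 3754 CPM in vehicle libraries. Kdr read 650, 700 and 742 CPM in LPA libraries and 671, 560 and 572 CPM in vehicle libraries. The treatments overlapped for both, with a log2 fold change of 0.11 ± 0.10 (SE) for Flt1 and 0.21 ± 0.12 for Kdr. The 95% intervals of these log2 fold changes ran from -0.09 to 0.32 for Flt1 and from -0.03 to 0.44 for Kdr. The 2 members with an unadjusted p under 0.05 were Vegfc and Sema3c. Vegfc read 141, 115 and 122 CPM with LPA and 86.5, 94.7 and 90.7 CPM with vehicle. Sema3c read 389, 429 and 394 CPM with LPA and 513, 453 and 474 CPM with vehicle. In both genes the libraries did not overlap, yet the adjusted p by edgeR was 0.52 for Vegfc (log2 fold change 0.46 ± 0.17) and 0.661 for Sema3c (-0.26 ± 0.12). The Bmx-led sub-cluster held 150 of the 374 endothelial Vegfc UMIs, and its part in the Vegfc values was not tested.

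The ratio of the signalling receptor to the tightly binding receptor was taken within each library, where no scaling is needed. Per 100 Flt1 UMIs, endothelial cells held 13.4, 17.4 and 16.9 Kdr UMIs in LPA libraries and 15.7, 13.5 and 15.2 in vehicle libraries. These overlap, and the difference in mean log2 ratio was 0.10 (two-sided exact permutation test, p = 0.6, smallest possible p 0.1). None of the 36 pathway genes tested in endothelial cells was called, including Tek and Tie1 of 5 angiopoietin and Tie genes tested, and Dll4, Nos3, Apln and 9 others of the 12 genes tested from a list downstream of VEGF receptors.

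Pericytes had 3 members tested and meningeal fibroblasts 9, and none was called, against 0.221% and 1.15% of all genes. Flt1 in pericytes read 373, 404 and 449 CPM with LPA and 361, 313 and 302 CPM with vehicle, without overlap (log2 fold change 0.33 ± 0.13, adjusted p = 0.561 by edgeR). In meningeal fibroblasts it went the other way, at 78.5, 90.6 and 77.7 CPM with LPA and 118, 99.5 and 133 CPM with vehicle (-0.48 ± 0.12, adjusted p = 0.064 by edgeR). Without vehicle 2 this value was called (-0.59, adjusted p = 0.0162), as it was with no filter on low counts. Meningeal clusters differ widely in Flt1, with 275.9 CPM in the Ptgds-led, 230.7 CPM in the Fbn2-led and 12.5 CPM in the Slc47a1-led cluster. The Ptgds-led cluster held 61, 143 and 74 nuclei with LPA and 113, 224 and 248 with vehicle. In the Fbn2-led cluster these were 16, 32 and 33 with LPA and 147, 183 and 188 with vehicle. Meningeal fibroblasts numbered 301, 501 and 347 with LPA and 681, 1162 and 1198 with vehicle. The part of the clusters in this value was not tested. Sema3c in meningeal fibroblasts read 57.3, 47.4 and 30.6 CPM with LPA and 21.8, 29.4 and 32.2 CPM with vehicle, which overlap (0.68 ± 0.20, adjusted p = 0.121 by edgeR). Without LPA 3 it was called (0.88, adjusted p = 0.0356), as it was with no filter on low counts.

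In astrocytes Nrp2 rose. It read 69.0, 77.5 and 68.4 CPM with LPA and 59.6, 46.3 and 41.3 CPM with vehicle, so every LPA library was above every vehicle library. The log2 fold change was 0.58 ± 0.10, with an adjusted p of 0.00137 by edgeR. Nrp2 was called in 15 of 16 alternatives. It was not called with nuclei as replicates, where the adjusted p passed and the log2 fold change was under the limit of 0.25. Sema3c, at a far lower count of 307 UMIs in all, read 10.2, 14.4 and 9.24 CPM with LPA and 4.30, 7.01 and 6.10 CPM with vehicle (0.93 ± 0.22, adjusted p = 0.0108 by edgeR). This call was lost without LPA 2 (0.72, adjusted p = 0.0851 by edgeR) and at Leiden resolution 2 (0.83, adjusted p = 0.0574 by edgeR). The share of thinned astrocyte nuclei with a Nrp2 UMI was 7.71% to 9.97% with LPA and 5.50% to 7.17% with vehicle (two-sided exact permutation test, p = 0.1, the smallest possible). Oligodendrocytes, taken as a background, had 2.07% and 1.74% on average, with a median of 5070 UMIs per nucleus against 3072 in astrocytes. For Sema3c the thinned shares in astrocytes overlapped (exact p = 0.4) at an average of 1.25% and 0.946%, against 0.497% and 0.495% in oligodendrocytes.

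Marker lists also moved in the astrocyte sums, in both directions. Markers of multiciliated ependymal cells summed to 104.5 to 113 CPM with LPA and 55.1 to 75.4 CPM with vehicle, with 6 of 11 tested called upward. Those of neurons, the type with the highest Nrp2, summed to 2674 to 3035 CPM and 2355 to 2540 CPM, with 1 of 14 called upward. In other lists genes fell. Oligodendrocyte markers summed to 1122 to 1348 CPM with LPA and 1365 to 1845 CPM with vehicle, with 6 of 14 called downward. Of erythroid markers 3 of 5 were called downward. The astrocytes' own markers lay at 24710 to 25980 CPM and 26960 to 27710 CPM, with 2 of 14 called upward and 5 downward. Markers of activated microglia went both ways (3 of 6 upward, 2 downward). The part of these lists in the Nrp2 and Sema3c values was not tested.

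The make-up of the astrocytes also differed between the treatments. The cluster led by Gfap and C4b made up 24.3% to 26.7% of astrocytes with LPA and 11.2% to 12.7% with vehicle (exact p = 0.1, the smallest possible). Nrp2 in this cluster ranged from 163 to 320 CPM, against 29.8 to 40.4 CPM in the other astrocytes. A split of the astrocytes into these 2 parts was made after seeing the data. Within the Gfap-led cluster Nrp2 read 174, 199 and 177 CPM with LPA and 320, 179 and 163 CPM with vehicle, which overlap (log2 fold change -0.11 ± 0.16, adjusted p = 0.771 by edgeR). In the other astrocytes its log2 fold change was 0.17 ± 0.12 (adjusted p = 0.534 by edgeR). Nrp2 thus passed the test in neither part, and passed in their sum.

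Within the Gfap-led cluster 2 of 8 members tested rose, where 9.4% of all genes were called, and none of 9 was called in the other astrocytes, against 2.17%. Vegfa read 191, 190 and 213 CPM with LPA and 152, 121 and 121 CPM with vehicle in the Gfap-led cluster (0.72 ± 0.13, adjusted p = 0.000874 by edgeR). Every LPA library lay above every vehicle library, and the value was called under all 13 alternatives run for it, with log2 fold changes from 0.65 to 0.81. None of these alternatives redrew the cluster, changed the mitochondrial filter or used nuclei as replicates. In the other astrocytes Vegfa read 282, 292 and 284 CPM with LPA and 350, 332 and 286 CPM with vehicle (-0.14 ± 0.07, adjusted p = 0.388 by edgeR). In all astrocytes together the LPA libraries (260, 268 and 266 CPM) were below the vehicle libraries (332, 313 and 272 CPM), with an adjusted p of 0.109 by edgeR. Without vehicle 3 that lower value was called (-0.26, adjusted p = 0.0264).

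The difference in the LPA effect between the Gfap-led cluster and the other astrocytes was tested as an interaction with library as a block, where 5.12% of all genes were called. It was 0.86 ± 0.14 for Vegfa (adjusted p = 6.75e-06 by edgeR), higher in the Gfap-led cluster. Sema3c in the Gfap-led cluster ranged from 23.8 (LPA 3) to 42.4 CPM (LPA 2) with LPA and from 12.9 to 16.6 CPM with vehicle, without overlap (1.23 ± 0.34, adjusted p = 0.0245 by edgeR). This call was lost with DESeq2 (adjusted p = 0.0962) and without LPA 2, vehicle 1, vehicle 2 or vehicle 3 (adjusted p from 0.0567 to 0.117 by edgeR), and the interaction of 1.38 ± 0.44 (adjusted p = 0.0486 by edgeR) was lost without any of the libraries except LPA 3, with adjusted p up to 0.313. Nrp1 read 89.4, 90.1 and 90.9 CPM with LPA and 171, 124 and 104 CPM with vehicle in this cluster (-0.43 ± 0.16, adjusted p = 0.0979 by edgeR). Its interaction was -0.58 ± 0.16 (adjusted p = 0.0171 by edgeR) and was lost without LPA 1, LPA 2, vehicle 1 or vehicle 2 (adjusted p from 0.0535 to 0.219). The plot of astrocyte values shows Vegfa with LPA above vehicle in the Gfap-led cluster and below it on average in the rest.

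**Figure D4:**
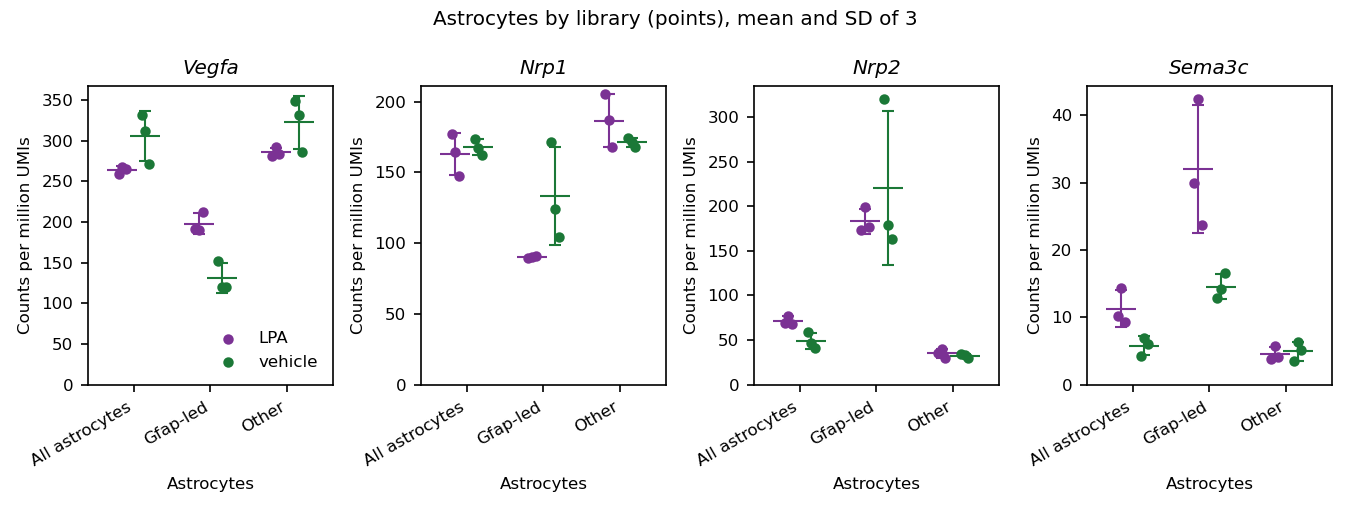
CPM of 4 members (panels) in all astrocytes, in the Gfap-led cluster and in the other astrocytes, with a point per library, LPA in purple and vehicle in green, and bars for the mean and SD of 3. Vegfa and Sema3c in the Gfap-led cluster are higher in all 3 LPA libraries, while Nrp2 overlaps within each part and is separated in all astrocytes.

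In microglia, Nrp1 differed between states. In LPA libraries it read 401, 388 and 432 CPM in homeostatic, 855, 1144 and 1001 CPM in intermediate and 1153, 1120 and 1189 CPM in activated microglia. Activated microglia thus held 2.75 to 2.89 times the homeostatic level within a library, close in value to macrophages of LPA libraries (1231, 1431 and 1389 CPM). Nrp2 in activated microglia was 2.04 to 2.25 times the homeostatic level, at 267, 215 and 235 CPM against 119, 101 and 115 CPM. Flt4 and Vegfc together gave 3 UMIs in activated microglia, and Kdr 7 UMIs. Vegfa was at 31.2, 45.8 and 30.5 CPM in activated and 36.2, 52.5 and 48.7 CPM in homeostatic microglia of these libraries. The states are clusters of the same nuclei, and no test was made between them.

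All microglia together had 5 members tested, of which Nrp1 and Nrp2 rose, where 9.37% of all genes were called. Nrp1 read 712, 771 and 877 CPM with LPA and 313, 280 and 255 CPM with vehicle (log2 fold change 1.47 ± 0.14, adjusted p = 1.97e-10 by edgeR). It was called under all 16 alternatives. Of thinned nuclei, 53.2% to 62.9% had a Nrp1 UMI with LPA and 17.6% to 34.1% with vehicle. In oligodendrocytes the share was 1.82% to 3.17%. Thinning leaves out shallower nuclei, and it cut the treatments unequally. Among homeostatic microglia it left out 155 nuclei with LPA, where the libraries held 205, 289 and 160. With vehicle it left out 319, where they held 111, 312 and 94. The vehicle shares thus rest on the deeper nuclei of their libraries, and the part of this cut in the difference was not tested. Nrp2 read 168, 149 and 169 CPM with LPA and 78.3, 84.1 and 175 CPM with vehicle, so vehicle 3 overlapped (log2 fold change 0.70 ± 0.20, adjusted p = 0.0173 by edgeR). Homeostatic microglia of vehicle 3 read 75.5 CPM from 9 UMIs, while with its 2 nuclei of other states the library held 22 UMIs. The call was lost with DESeq2 (adjusted p = 0.197) and without LPA 3 (adjusted p = 0.0578), vehicle 1 (0.0874) or vehicle 2 (0.487). The summed markers of activated microglia lay at 1064 to 1476 CPM with LPA and at 138.5 to 302 CPM with vehicle, with 6 of 8 tested called upward. Those of macrophages lay at 2319 to 2883 CPM against 771 to 970 CPM. Their part in these values was not tested.

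Within homeostatic microglia 3 members were tested and none was called, against 0.336% of all genes. Nrp1 read 401, 388 and 432 CPM with LPA and 304, 282 and 269 CPM with vehicle, without overlap (0.49 ± 0.15, unadjusted p = 0.00138, adjusted p = 0.148 by edgeR). The macrophage marker list was at 1092 to 1243 CPM in these LPA libraries and 814 to 967 CPM in the vehicle libraries. Of its genes, 1 of 4 tested was called upward and Lyve1 and Pf4 were at 0, and the part of the list in the Nrp1 value was not tested. The call depended on where the border to the intermediate cluster was drawn. That cluster held 70, 90 and 106 nuclei in LPA libraries and 1, 4 and 1 in vehicle libraries. Adding it thus changes the LPA sums far more than the vehicle sums. A test on the merged nuclei cannot tell the numbers of the states from the level within homeostatic microglia. With intermediate microglia added, a choice made after seeing the data, Nrp1 was called (1.04, adjusted p = 4.23e-07 by edgeR) as 1 of 4 members tested, against 1.93% of all genes. It was also called at Leiden resolution 2 (0.94, adjusted p = 3.95e-06) and with no mitochondrial filter (1.01, adjusted p = 1.41e-07). In macrophages, the type with the highest Nrp1, it was the single member tested and was not called (0.27 ± 0.23, adjusted p = 0.848 by edgeR), where 0.0582% of all genes were called.

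**Figure D5:**
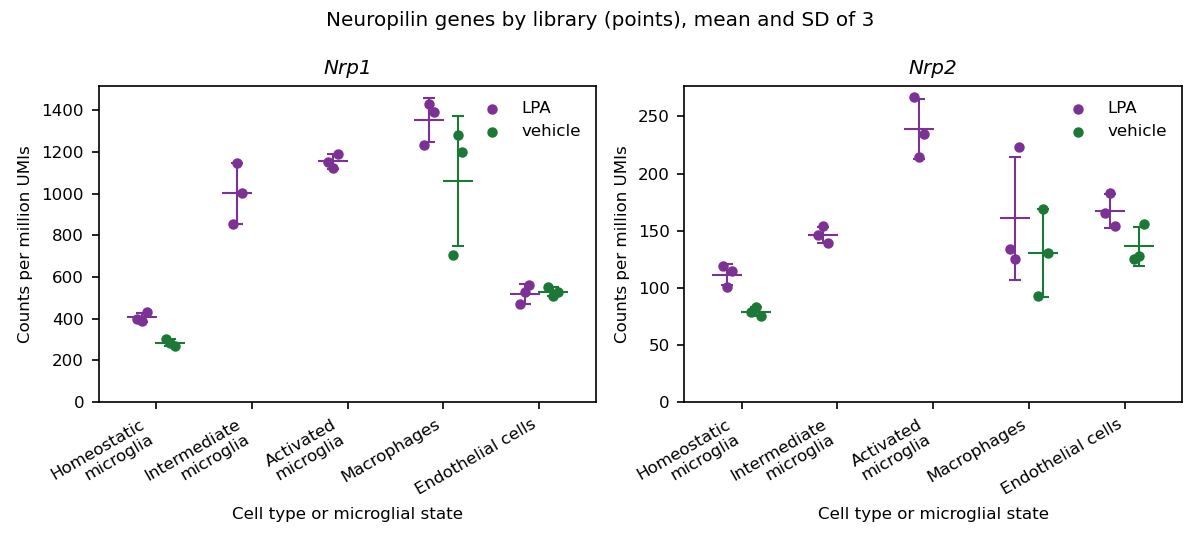
CPM of Nrp1 and Nrp2 (panels) in microglial states, macrophages and endothelial cells, with a point per library, LPA in purple and vehicle in green, and bars for the mean and SD of 3; vehicle libraries had too few intermediate and activated microglia for a value. Nrp1 is higher in intermediate and activated than in homeostatic microglia in each of the 3 LPA libraries, with activated microglia between 1120 and 1189 CPM.

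In multiciliated ependymal cells, which line the ventricles, 1 of 6 members tested rose. Nrp1 read 37.1, 50.4 and 21.6 CPM with LPA and 12.6, 4.21 and 13.8 CPM with vehicle, from 91 UMIs in all (1.66 ± 0.43, adjusted p = 0.0183 by edgeR). The treatments did not overlap. The thinned share of nuclei with a Nrp1 UMI was 3.67% to 7.39% with LPA and 0% to 1.85% with vehicle, which in the vehicle libraries is at or below the share in oligodendrocytes (1.82% to 3.17%). The call was lost at Leiden resolution 2 (0.93, adjusted p = 0.204 by edgeR) and with a Wilcoxon test over nuclei as replicates (adjusted p = 0.516). It was also lost with DESeq2 (adjusted p = 0.138) and without LPA 2 (0.112), vehicle 1 (0.0858), vehicle 2 (0.077) or vehicle 3 (0.0605). The Mcidas-led sub-cluster, whose leading genes also include Deup1 and belong to cells forming cilia, had 70.4 CPM of Nrp1 and made up 11.8% to 16.5% of ependymal nuclei with LPA and 1.28% to 2.48% with vehicle. Without it, a choice made after seeing the data, Nrp1 was not called (1.38 ± 0.46, adjusted p = 0.14 by edgeR), where 1.81% of all genes were called. Microglial markers summed to 165 to 180 CPM with LPA and 169 to 202 CPM with vehicle in these nuclei. Astrocyte markers summed to 1676 to 1946 CPM and 1553 to 1763 CPM, with 2 of 13 tested called upward. Neuron markers lay at 3058 to 3353 CPM and 3214 to 3705 CPM, with 1 of 10 tested called upward. Markers of OPCs (1 of 7), oligodendrocytes (3 of 13), choroid plexus epithelium (2 of 6) and erythroid cells (1 of 1) were called downward. The part of these lists in the Nrp1 value was not tested. The LPA effect on Nrp1 was 1.958 ± 0.44 higher than in choroid plexus epithelium (interaction, adjusted p = 0.00312 by edgeR), where Nrp1 read 137, 145 and 143 CPM with LPA and 210, 134 and 150 CPM with vehicle. That difference was lost without LPA 2 (adjusted p = 0.0655) or vehicle 1 (0.222). In choroid plexus epithelium none of 6 members was called, against 0.125% of all genes.

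In OPCs none of 8 members was called, in oligodendrocytes none of 9 and in neurons none of 9, against 0.171%, 5.13% and 0.0651% of all genes. Vegfa in OPCs read 151, 150.2 and 190.3 CPM with LPA and 139, 146 and 113 CPM with vehicle, without overlap (0.31 ± 0.10, adjusted p = 0.418 by edgeR). In oligodendrocytes its value was 0.26 ± 0.09 (adjusted p = 0.11 by edgeR). It was called without LPA 1 (0.34, adjusted p = 0.0375 by edgeR) and with no filter on low counts. Markers of OPCs in these oligodendrocyte sums lay at 4035 to 4505 CPM with LPA and 2663 to 2824 CPM with vehicle, with 8 of 10 called upward, and their part in the Vegfa value was not tested. The LPA effect on Vegfa was 0.52 ± 0.10 higher in OPCs than in astrocytes (interaction, adjusted p = 0.000532 by edgeR, called in all 8 alternatives). The astrocyte sum joins the Gfap-led cluster (Vegfa 0.72) and the other astrocytes (-0.14), whose shares differed between the treatments. Their part in this difference was not tested. The LPA effect on Vegfa did not pass the test of a difference between OPCs and oligodendrocytes (0.06, 95% interval -0.17 to 0.28).

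Over 7 pairs of cell types, 2 of 54 interactions of members were called. The called ones were those of Vegfa in OPCs against astrocytes, where 1.4% of all genes were called, and of Nrp1 in ependymal cells against choroid plexus epithelium, where 0.771% were. The other pairs had no member called, against 0.0% of all genes for endothelial cells and pericytes, 0.0175% for endothelial cells and meningeal fibroblasts, 0.23% for homeostatic microglia and macrophages, 1.82% for OPCs and oligodendrocytes and 0.0419% for homeostatic microglia and endothelial cells.

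Summed over all nuclei of a library, none of the 10 members was called by edgeR, where 5.62% of all genes were called, and DESeq2 called 3 (Flt1, Kdr and Sema3a). The 5.62% is edgeR's, and the share of all genes called by DESeq2 is not given here. In sums over all nuclei, fewer cells of a type and less RNA per cell cannot be told apart. Sema3a read 42.0, 42.3 and 46.9 CPM with LPA and 50.2, 56.1 and 67.6 CPM with vehicle, without overlap (-0.40 ± 0.11, adjusted p = 0.064 by edgeR). Meningeal fibroblasts, the type with its highest level, held 33.4% of Sema3a UMIs and neurons 37.7%. Meningeal fibroblasts numbered 301, 501 and 347 in LPA libraries and 681, 1162 and 1198 in vehicle libraries. Neurons numbered 1875, 1980 and 2213 against 1967, 2767 and 3526. Sema3a within meningeal fibroblasts was 0.13 ± 0.08 higher with LPA on the log2 scale (adjusted p = 0.639 by edgeR). The part of these numbers in the Sema3a value was not tested. For its own counts, the paper says that fewer vascular cells could possibly come from difficulty in taking meninges from hydrocephalic brains. Kdr (0.42 ± 0.14, adjusted p = 0.122) and Flt1 (0.28 ± 0.09, adjusted p = 0.129) were both called without vehicle 1, as was Sema3a, at adjusted p of 0.034, 0.00675 and 0.0164.

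The other genes of the pathway came from 5 lists of 48 genes, and they are counted here over the 11 cell types. The calls fell in astrocytes, ependymal cells and meningeal fibroblasts, where 8.02%, 4.4% and 1.15% of all genes were called. Of 27 tests of angiopoietins and Tie receptors 1 passed, upward. That gene was Angpt1, a ligand of the Tek receptor that steadies vessels, in astrocytes, at 182, 185 and 198 CPM with LPA and 98.3, 104 and 112 CPM with vehicle (0.86 ± 0.07, adjusted p = 3.64e-07 by edgeR). Of 73 tests of genes downstream of VEGF receptors, 1 rose (Igfbp3 in meningeal fibroblasts, 1.24 ± 0.28) and 1 fell (Apln in astrocytes, -0.62 ± 0.15). Of 104 tests of hypoxia regulators and targets, 1 rose (Ndrg1 in ependymal cells, 1.20 ± 0.36) and 1 fell (Slc2a1, a glucose transporter, in astrocytes, -0.38 ± 0.10). Of 77 tests of plexins and other class 3 semaphorins 1 rose (Plxnb2 in astrocytes, 0.38 ± 0.11), and of 8 tests of the ligands Pgf and Vegfd none was called. In all microglia together, Plxna4, a co-receptor partner of neuropilins, fell from 656, 473 and 581 CPM with vehicle to 337, 316 and 300 CPM with LPA (-0.80 ± 0.13, adjusted p = 1.96e-05 by edgeR), and Plxnb2, which rose in astrocytes, fell there too (-0.65 ± 0.16, adjusted p = 0.00338 by edgeR). Hif1a (1.05 ± 0.21), Prkch (1.18 ± 0.20) and Bnip3 (2.38 ± 0.56) rose in all microglia, where 9.37% of all genes were called. As for Nrp1, the sum holds microglial states whose numbers differ between the treatments. Summed over all nuclei, where 5.62% of all genes were called, Ndrg1 fell (-0.51 ± 0.06, adjusted p = 0.00375 by edgeR), opposite to its rise in ependymal cells. Plxna2 fell as well (-0.28 ± 0.06) and Prkch rose (0.30 ± 0.07).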

How the data were processed

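Single-nucleus libraries were prepared with 10x 3′ v3 chemistry, and the authors made the deposited UMI counts with Cell Ranger 4.0.0 on a pre-mRNA mm10 reference. Counts are whole numbers per gene and barcode, not normalized. Nuclei with at least 300 genes and at most 1% mitochondrial UMIs were kept, and those with UMIs more than 1.5 interquartile ranges above the upper quartile of their library were left out. Nuclei were clustered with scanpy 1.11.5 (3000 variable genes without the members, 40 components, Leiden resolution 1, seed 1) and named from fixed markers. Names are rebuilt here and may differ from those of the study. Doublets called by Scrublet were kept in and left out as an alternative.

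UMIs were summed per library and cell type and tested with edgeR 4.0.16 (R 4.3.3, filterByExpr, TMM, quasi-likelihood test, Benjamini-Hochberg adjustment over all genes). Interactions had library as a block. Every adjusted p is edgeR's unless DESeq2 1.42.0 is named, and SE is the standard error of a log2 fold change. Scripts were tested on simulated data. Intervals and errors cover these libraries, with n = 3 per treatment. Libraries held 48852970 to 65688644 UMIs, with a median of 3732 to 4578 per nucleus kept. Shares were also taken with each nucleus thinned to 1500 UMIs, leaving out shallower nuclei.

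The members, lists and tests were chosen with earlier results of these data known. Named were the 10 members, the 3 genes most like each in pattern (at least 20 CPM in a cell type) and pathway genes past the test. Alternatives were other size factors, DESeq2, no filter on low counts, each library left out, the replicate number as a block, a term for Xist, other nucleus filters or clustering, and a Wilcoxon test over nuclei. Not all were run for every result. The astrocyte parts had no other clustering, mitochondrial filter or Wilcoxon test. Interactions had only other size factors, no filter on low counts and each library left out. Leaving out shared barcodes, the astrocyte split, the microglial merge and the removal of the Mcidas-led nuclei were added after seeing the data.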

Additional observations from a re-analysis of the deposited data

Results flagged for a closer look

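In 5 cases the LPA effect of a member differed between cell types or clusters by an interaction test in edgeR with library as a block. Vegfa was 0.525 (log2) higher in OPCs than in astrocytes (adjusted p = 0.000532), and 0.858 higher in Gfap-led than in other astrocytes (adjusted p = 6.75e-06). Both passed in all 8 alternatives, which were other size factors, no filter on low counts and each library left out. None of these redrew the clusters. Nrp1 was 1.958 higher in ependymal cells than in choroid plexus epithelium (adjusted p = 0.00312), and its effect in Gfap-led astrocytes minus that in other astrocytes was -0.578 (adjusted p = 0.0171). For Sema3c the difference between the astrocyte parts was 1.379 (adjusted p = 0.0486). The differences of Nrp1 and Sema3c each lost their call without at least 2 of the libraries. The astrocyte parts were defined after seeing the data, and the share of Gfap-led nuclei differed between treatments. The part of that share in the difference between OPCs and astrocytes was not tested.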

How the results depend on the processing

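Over the 11 cell types 3 member tests were called. The count was 7 with no filter on low counts, 5 with no mitochondrial filter and 0 with nuclei as replicates, and 1 to 4 with a library left out (1 without LPA 2). A name can cover other nuclei under these settings. With no mitochondrial filter 156 nuclei were named meningeal fibroblasts, against 4190 in the main set. At Leiden resolution 2 there were 414 macrophages and 219 activated microglia, against 201 and 400. The test over nuclei took only members with a UMI in at least 10% of the nuclei of a treatment, so Sema3c in astrocytes was not in it. Its fold change was computed on another scale than that of edgeR. Over all nuclei none was called. The count there was 3 with DESeq2, 1 with no filter and 0 to 3 with a library left out (3 without vehicle 1). Of the interactions over 7 pairs 2 were called, against 4 with no filter and 1 to 3 with a library left out (1 without LPA 2 or vehicle 1). The cause of these changes was not tested. The shares of all genes called under these settings are not given here, so the counts are not a result about the members. The log2 Kdr to Flt1 difference of 0.098 was -0.025 with no mitochondrial filter and 0.029 to 0.215 with a library left out. Same-numbered libraries correlated at r = 0.18, 0.426 and -0.046 in their deviations over 16452 genes, so the numbers were not taken to pair them. With the replicate block 3 members were called per cell type and 1 over all nuclei (Sema3a, -0.39, adjusted p = 0.0186 by edgeR). Of all pairs of a member and a cell type, astrocyte part or all microglia together, 125 were called under no setting and 15 under some. Pairs that passed the filter on low counts only under an alternative are counted there, and the sum over all nuclei is not. The highest cell type of all 10 members was the same without Scrublet doublets. Depth limits the low genes, above all Flt4 with 538 UMIs in all. Intermediate and activated microglia had too few vehicle nuclei for a test.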

Other observations

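Neuropilins and semaphorins varied widely among the neurons that escaped the sort. In the cluster led by Tspan18 and C1ql3 (1184 nuclei), Nrp1 stood at 783.5 CPM, Nrp2 at 438 CPM and Sema3c at 206 CPM in the pooled nuclei, while the Kcnc2-led cluster (843 nuclei) had 38.0, 64.7 and 19.6 CPM. The Ebf2-led cluster (240 nuclei) combined 806 CPM of Nrp2 with 624 CPM of Sema3a, and the Nwd2-led cluster (491 nuclei) had 736 CPM of Nrp2 with 12.5 CPM of Sema3a. Vegfa was highest among neuron clusters in that led by Reln and Ndnf (103 CPM, 502 nuclei).

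Among astrocytes, the Slc6a11-led cluster (2887 nuclei) had 274 CPM of Nrp1 and the Slc1a2-led cluster (5525 nuclei) 132 CPM, while Vegfa was 245.5 CPM in the former and 331.5 CPM in the latter. These are levels of pooled nuclei and were not tested between clusters.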
